A study of Mus musculus with 2 samples.

Results

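Hematopoietic growth factor receptors are the surface proteins through which blood-forming cells sense the cytokines that keep them alive and direct them into a lineage. The set comprised 10 genes, Csf3r, Csf2ra, Csf2rb, Csf2rb2, Csf1r, Kit, Flt3, Il3ra, Epor and Il6ra, out of 18193 genes measured. They were chosen by symbol, with earlier results of these data known. Every probe set that the platform annotation names for 1 of these genes alone was taken, 16 of 34945 such probe sets. A gene with several probe sets was represented by the probe set with the highest mean over both arrays.

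The compared groups were neutrophils from miR-223 knockout mice and neutrophils from wild-type mice, both on the C57BL/6 background and both from male animals. Haematopoietic progenitors of the bone marrow were grown for 6 days with SCF (stem cell factor) and G-CSF, the granulocyte colony-stimulating factor. Both cultures received cycloheximide, which blocks translation, at 100 ug/ml for 8 min before harvest. Total RNA of each genotype was measured on 1 Affymetrix 3' expression array, and the comparison asked how messenger RNA levels differ without miR-223. With 1 array per genotype there was no replicate check, no test was run, and this number limits how precise any value can be. The sources used here do not say how many mice each culture came from, and they describe neither the knockout allele nor the purity of the cultures.

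The receptors fall into structural classes. Csf3r, Csf2ra, Csf2rb, Csf2rb2, Il3ra, Epor and Il6ra are cytokine receptor chains without a kinase of their own that signal through JAK kinases and STAT factors. Kit, Flt3 and Csf1r are receptor tyrosine kinases. In the neutrophil lineage the G-CSF receptor Csf3r drives production and survival of granulocytes, whereas Kit and Flt3 are known from immature progenitors and Csf1r from monocytes and macrophages.

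The deleted microRNA is encoded on the X chromosome and gives rise to 2 mature strands, shown here with the seed, bases 2 to 8, in capitals, because target recognition runs mainly through the seed. The sequences are from RefSeq, build GRCm38.p6, at chrX:96242884-96242905 for the 3p strand and chrX:96242842-96242864 for the 5p strand, both on the plus strand.
mmu-miR-223-3p: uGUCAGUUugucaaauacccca
mmu-miR-223-5p: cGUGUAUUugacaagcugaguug
Transcript sequences of the receptors were not used here, so seed matches in them were not counted.

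Promoter windows from RefSeq were used for 8 of the 10 genes, and 3 are shown as the 250 bases before the annotated start. Csf1r was left out of this part, and no window was at hand for Csf2rb. Csf3r and Kit are the receptors of both cytokines in the medium, and Epor, the erythropoietin receptor, belongs to another lineage. The windows lie at chr4:126024409-126024658 on the plus strand for Csf3r, chr5:75574737-75574986 on the plus strand for Kit and chr9:21963577-21963826 on the minus strand for Epor, all in build GRCm38.p6. Capitals mark every match to 3 short motifs, read on either strand: GAGGAA, bound by the myeloid factor PU.1, TTGCNNAA, a form of the C/EBP motif, and AGATAA, bound by GATA factors.
Csf3r: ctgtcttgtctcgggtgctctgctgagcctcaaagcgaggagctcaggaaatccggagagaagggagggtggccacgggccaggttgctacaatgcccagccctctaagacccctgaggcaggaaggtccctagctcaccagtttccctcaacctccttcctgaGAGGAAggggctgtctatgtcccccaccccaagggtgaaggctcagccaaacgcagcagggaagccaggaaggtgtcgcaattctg
Kit: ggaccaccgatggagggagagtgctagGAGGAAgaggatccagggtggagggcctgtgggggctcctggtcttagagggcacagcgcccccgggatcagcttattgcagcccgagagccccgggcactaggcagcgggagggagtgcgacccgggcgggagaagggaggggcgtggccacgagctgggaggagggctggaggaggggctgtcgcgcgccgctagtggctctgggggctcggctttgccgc
Epor: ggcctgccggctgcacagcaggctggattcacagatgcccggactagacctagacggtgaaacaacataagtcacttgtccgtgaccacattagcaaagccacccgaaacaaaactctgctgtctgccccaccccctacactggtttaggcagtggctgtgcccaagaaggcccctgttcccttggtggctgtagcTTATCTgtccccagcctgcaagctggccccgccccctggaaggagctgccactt
The Csf3r window holds GAGGAA at positions -86 to -81 from the start and the Kit window holds it at -223 to -218. The Epor window holds AGATAA on the opposite strand at positions -54 to -49. Among the 8 genes, GAGGAA occurred before 5, AGATAA before 2 (Epor and Il6ra) and TTGCNNAA before 1 (Il3ra). Over all 32851 such windows in the table the shares were 23.3% for GAGGAA, 9.99% for AGATAA and 9.56% for TTGCNNAA. These matches describe the sequence only.

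Deposited values were linear intensities, with medians over all probe sets of 33.7 on the knockout array and 34.1 on the wild-type array. Differences are given as knockout minus wild type of log2(intensity + 16), a scale that understates changes of dim genes. A gene counted as expressed if its mean over both arrays reached the median of all probe sets, an intensity of 33.9, which left 11006 genes. The only spread at hand was the SD of a gene's expressed probe sets around their mean, 0.144 on the log2 scale over 5017 genes, which is not a replicate error. Of 14 neutrophil marker genes, 12 had a probe set of their own and all 12 were expressed. Among them were S100a9 (31305 on the knockout array, 29262 on the wild-type array) and Elane (15172 and 13593). Markers of other lineages also passed the cut, 9 of 10 measured for mast cells and basophils and 10 of 12 for monocytes and macrophages. Passing the cut therefore does not identify the cells. Spike-in control RNAs gave lower signals on the knockout array for 41 of 42 probe sets, with a median difference of -0.13, and the values below were not adjusted to them. The 5' control probe set for 18S ribosomal RNA gave 1149 on the knockout array and 493 on the wild-type array. The 3' one gave 206 and 176 in the same order, and the middle one 153 and 143.

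All 10 receptors were expressed on both arrays, and most were slightly higher in the knockout culture. The difference was above 0 for 9 genes and below 0 for 1, Kit, whereas 49.7% of all expressed genes were above 0 and 50.1% below. The median difference of the receptors was 0.18, against -0.0004 over all expressed genes, and in linear terms the median ratio was 1.14. None of the 10 reached 2-fold in either direction, a size that 0.0999% of expressed genes reached upwards and 0.0454% downwards. Counted by probe set, 13 of 16 were higher and 3 lower, where 53.6% of all expressed probe sets were higher and 46.1% lower. A difference larger than the SD between probe sets was seen upwards in 7 of 10 receptors, against 18.8% of expressed genes, and downwards in none, against 15.5%. By 0.25 or more, 2 receptors were higher (background 8.07%) and none was lower (background 4.8%). The count of 2 was 1 with a pseudocount of 64 or an expression filter at the 75th percentile, and 7 after centring on the spike-in controls. Because the genes were chosen with earlier results of these data known, these counts are not an independent comparison with the background.

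**Figure D1:**
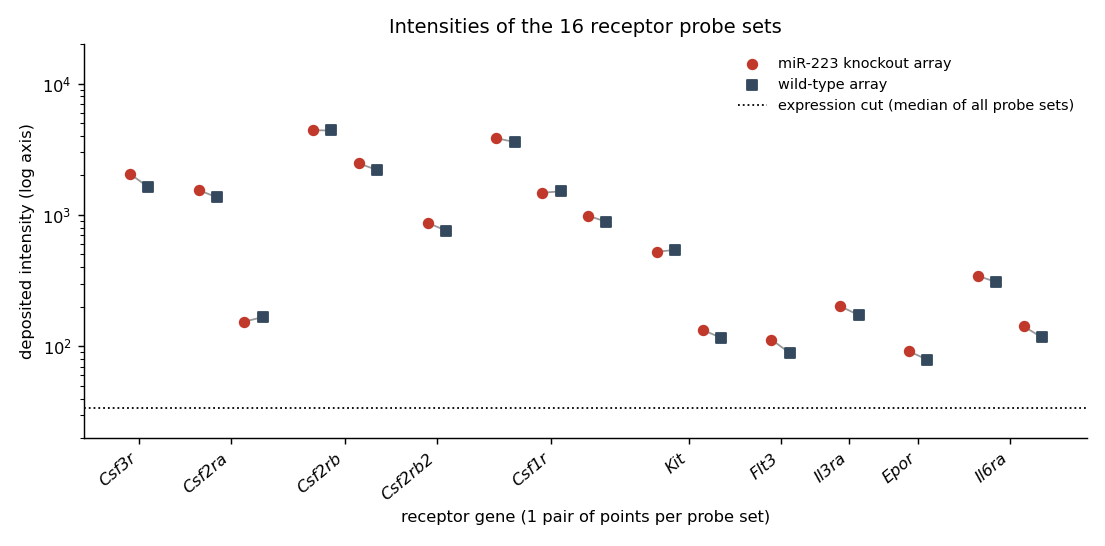
Deposited intensity on a log axis for each of the 16 receptor probe sets, with the knockout array as red circles and the wild-type array as dark squares joined by a line, and the expression cut of 33.9 as a dotted line. All points lie above the cut, from 79.2 to 4412, and the red circle is the higher point in 13 pairs; heights of different probe sets cannot be compared with each other.

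Csf3r, the receptor of the G-CSF in the medium, showed the largest difference of the 10 on the log2(intensity + 16) scale. Its single probe set gave 2057 on the knockout array and 1630.2 on the wild-type array, a ratio of 1.26. The difference of 0.33 was 2.32 times the SD between probe sets, and 95.9% of expressed genes had a smaller or more negative one. No second Csf3r probe set was at hand to set beside it. Neutrophil markers were mostly higher too: of 12 expressed, 11 were higher and 1 lower, their median was 0.13 and their summed intensity 185036 on the knockout array and 175502 on the wild-type array. Cxcr2, a chemokine receptor of mature neutrophils, stood at 0.38, Mmp8, the neutrophil collagenase, at 0.28, and the antimicrobial peptide gene Camp at -0.29. The part of these markers in the Csf3r difference was not tested. In bulk RNA, more cells of a type and more RNA per cell cannot be told apart, which holds for every receptor below.

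Kit, the receptor of the SCF in the medium, did not share that difference. Its probe set with the highest mean gave 524 on the knockout array and 542 on the wild-type array, a difference of -0.05. Its other probe set gave 133 and 116 in the same order, a difference of 0.18. The pair thus disagreed in sign, with the first value inside the SD between probe sets and the second outside it. Averaged over both probe sets Kit stood at 0.06. Kit also marks mast cells, whose other markers were lower: all 9 expressed mast cell and basophil genes were below 0, with a median of -0.53 and a summed intensity over 10 measured genes of 4181 on the knockout array and 6211 on the wild-type array. The chymase Cma1 (-0.76), the carboxypeptidase Cpa3 (-0.74) and the IgE receptor chain Fcer1a (-0.56) were lowest, Mcpt4 was below the expression cut, and no expressed member was higher. Progenitor markers other than Kit and Flt3 were mostly higher instead, 7 of 8 expressed, with a median of 0.13. The part of either list in the Kit value was not tested.

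Flt3, the tyrosine kinase receptor of multipotent progenitors, had the next largest difference after Csf3r on the log2(intensity + 16) scale. Its single probe set was dim, at 113 on the knockout array and 88.7 on the wild-type array, a ratio of 1.27. By that ratio, and with a pseudocount of 1 (0.339 for Flt3, 0.336 for Csf3r), Flt3 stood just above Csf3r. The difference was 0.30, or 23.8 intensity units, and 94.5% of expressed genes lay below it. Progenitor markers other than Kit and Flt3 were also mostly higher, 7 of 8 expressed, with a median of 0.13, and the 9 measured genes had summed intensities of 8167 on the knockout array and 7308 on the wild-type array. Erg, a progenitor transcription factor, stood at 0.28, Hoxa9 at 0.23 and Myb at 0.17, and Mecom was below the cut. Dendritic cell genes, for which Flt3 is also a marker, went the other way: all 5 expressed were lower, with a median of -0.19. The MHC class II gene H2-Ab1 was lower by only -0.01, and another of its probe sets gave 0.13. The part of either list in the Flt3 difference was not tested.

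Csf1r, the receptor of macrophage colony-stimulating factor, differed little. Its 3 probe sets gave 3836, 1475 and 985 on the knockout array and 3580.3, 1511 and 885 on the wild-type array. The differences were 0.10, -0.03 and 0.15, so the direction depended on the probe set, and only the last of them exceeded the SD between probe sets. Monocyte and macrophage markers covered a much wider range, from -0.60 for Cx3cr1 to 1.51 for the apolipoprotein gene Apoe, with Ly86, a partner of a Toll-like receptor homologue, at 0.71. Of 10 expressed markers 7 were higher and 3 lower; they had a median of 0.22 and a summed intensity over 12 measured genes of 4653 on the knockout array and 3760.5 on the wild-type array, while C1qa and Mertk were below the cut. Whether they bear on Csf1r was not tested.

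**Figure D2:**
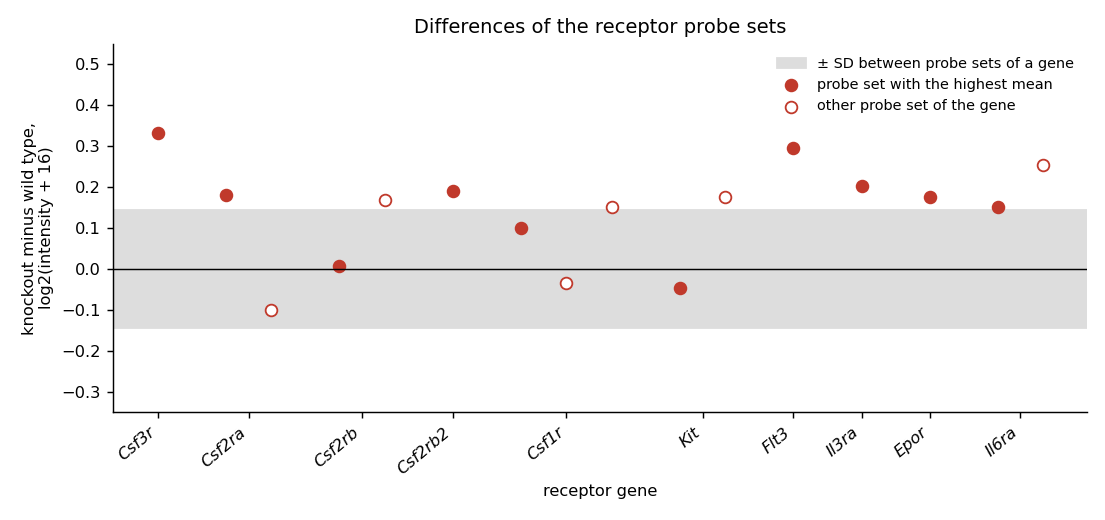
Difference between the knockout and wild-type arrays, on the scale log2(intensity + 16), for every receptor probe set, with filled circles for the probe set with the highest mean of a gene, open circles for its other probe sets, and a grey band of 0.144 either side of 0 for the SD between probe sets. Csf3r (0.33) and Flt3 (0.30) stand highest, and the probe sets of Csf2ra, Csf1r and Kit lie on both sides of 0.

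The receptors of the GM-CSF and interleukin-3 family pair a ligand-specific alpha chain with a signalling beta chain. Both alpha chains were higher in the knockout culture on their main probe sets. Csf2ra, the GM-CSF alpha chain, gave 1546 on the knockout array and 1361 on the wild-type array, a difference of 0.18. Its dimmer probe set pointed the other way, with 154 and 167 (-0.10), and the mean of both came to 0.04. Il3ra, the interleukin-3 alpha chain, gave 202 on the knockout array and 173 on the wild-type array, a difference of 0.20 on its single probe set.

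The beta chains were less uniform. Csf2rb, the common beta chain shared by the receptors of GM-CSF, interleukin-3 and interleukin-5, gave 4412 on the knockout array and 4390.4 on the wild-type array, a difference of 0.007. Its other probe set gave 2467 and 2192 in the same order, a difference of 0.17. Csf2rb2, the mouse beta chain that serves interleukin-3 alone, gave 869.8 on the knockout array and 759.7 on the wild-type array, a difference of 0.19. Csf2rb2 and Csf2rb lie beside each other on chromosome 15, with no other protein-coding gene between them in RefSeq, and are closely related copies. Another probe set is named for both and therefore belongs to neither: it gave 865 on the knockout array and 859.8 on the wild-type array, a difference of 0.008. Since near-identical copies can share signal, the separate values of these genes are uncertain. Eosinophils and basophils also carry the common beta chain: of 4 expressed eosinophil markers 3 were lower, Prg3 (-0.92), Prg2 (-0.73) and Epx, and Siglecf was higher (0.92). The eosinophil median was -0.53, with a summed intensity over 5 measured genes of 977 on the knockout array and 1203 on the wild-type array, Ccr3 was below the cut, and its part in the Csf2rb value was not tested.

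Epor, the erythropoietin receptor, gave 91.5 on the knockout array and 79.2 on the wild-type array. The difference was 0.18, or 12.4 intensity units, on a single dim probe set. The 3 expressed erythroid markers went the other way on their main probe sets, with a median of -0.17. Gata1 stood at -0.22, Klf1 at -0.17 and Tfrc, the transferrin receptor, at -0.11 (0.20 on another probe set). Hba-a1, Alas2 and Slc4a1, which define haemoglobin-making cells, were below the cut on these arrays. The summed intensity of the 6 measured erythroid genes was 4648 on the knockout array and 5026 on the wild-type array. Most of it was Tfrc, with 4464 on the knockout array and 4817 on the wild-type array. Megakaryocyte and platelet markers, a related lineage, had a median of -0.48, with 6 of 7 expressed members lower. Ppbp (-1.06) and Itgb3 (1.34, but 0.37 on its other probe set) stood at the ends. The summed intensity of these markers was 1321 on the knockout array and 2058 on the wild-type array. The part of either list in the Epor value was not tested.

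Il6ra, the ligand-binding chain of the interleukin-6 receptor, was higher on both of its probe sets. They gave 344 and 142 on the knockout array and 308 and 117 on the wild-type array. The differences of 0.15 and 0.25 both exceeded the SD between probe sets. Il6ra was the only receptor with several probe sets of which all were above 0 by more than that SD. Its signalling partner Il6st stood at -0.10 on its main probe set, with 273 on the knockout array and 295 on the wild-type array, but another of its expressed probe sets gave 0.48.

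Of the 5 receptors with more than 1 probe set, 3 had probe sets of opposite sign, Csf2ra, Csf1r and Kit. That was also the case for 47.5% of all genes with several expressed probe sets. The 6 probe sets that did not represent their gene had a median difference of 0.16, and 4 of them were higher. The other 5 receptors, Csf3r, Csf2rb2, Flt3, Il3ra and Epor, rested on a single probe set and could not disagree, and on the log2(intensity + 16) scale the 4 largest differences of the set, those of Csf3r, Flt3, Il3ra and Csf2rb2, were all of this kind. With a pseudocount of 1 Epor (0.207) stood above Csf2rb2 (0.195), and it too has a single probe set.

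**Figure D3:**
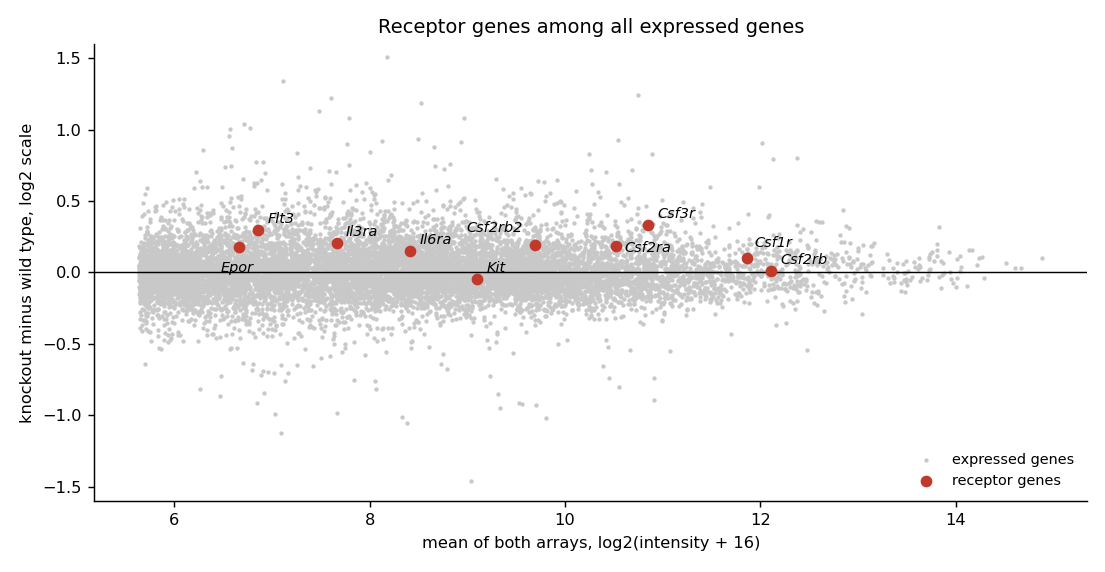
Difference between knockout and wild type against the mean of both arrays, both on the scale log2(intensity + 16), for 11006 expressed genes in grey and the 10 receptor genes in red. The receptors lie between -0.05 and 0.33, mostly in the upper part of the cloud, whose 10th and 90th percentiles are -0.18 and 0.22.

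The partners of the receptors were followed through lists of 53 pathway genes, of which 44 had a probe set of their own and 31 were expressed. Of these, 20 were higher and 11 lower in the knockout culture, with a median of 0.11, against 49.7% and 50.1% of all expressed genes and their median of -0.0004. By 0.25 or more 5 were higher, against the background of 8.07%, and none was lower, and none reached 2-fold. Ligand genes were mostly below the expression cut: of 8 measured, only Csf1, the ligand of Csf1r, was expressed. It gave 191 on the knockout array and 207 on the wild-type array (-0.11, with expressed probe sets from -0.13 to 0.03). Csf3 (32.1 on the knockout array, 26.1 on the wild-type array), Kitl (18.9 and 18.4), Csf2 (16.5 on each array) and Il3 (7.48 and 9.58) did not reach it. Il6, the ligand of Il6ra, was also below the cut, with 15.8 on the knockout array and 24.4 on the wild-type array (-0.34), as was Il34, another ligand of Csf1r, with 15.4 and 13.9. Among 6 measured partner and related receptor chains 2 were expressed, Il6st and the interleukin-4 receptor chain Il4ra, which stood at 0.30 with probe sets from -0.20 to 0.65.

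Signalling genes downstream of the receptors gave mixed values. Of 10 expressed kinases and adaptors, 6 were higher and 4 lower, a split near the 49.7% of all expressed genes that were higher, and the median was 0.11. Gab2, a scaffold that links these receptors to PI3 kinase, had 922 on the knockout array and 695 on the wild-type array (0.40, with probe sets from 0.23). The kinase Fes stood at 0.23, the adaptor Shc1 at 0.17 and the exchange factor Sos1 at 0.15 (-0.09 on another probe set). Jak2, the kinase bound by the beta chains and Epor, was at -0.003 (0.10 on another probe set) with 739 on the knockout array and 741 on the wild-type array. All 3 expressed STAT factors were higher, Stat3 at 0.49, Stat5a at 0.23 and Stat5b at 0.19. Another Stat3 probe set gave -0.12, whereas those of Stat5a and Stat5b had the same sign.

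Inhibitors and targets of receptor signalling were near 0 for the most part. Of 7 expressed inhibitors 4 were higher and 3 lower, and the median was 0.03. Socs3, which binds and silences the G-CSF receptor, had 1338 on the knockout array and 895 on the wild-type array (0.57, with probe sets from 0.27 to 0.89). Cish stood at 0.20, the adaptor Sh2b3 at 0.11 (-0.03 on another probe set) and the ubiquitin ligase Cbl at -0.05 (0.29 on another), while Ptpn6, a phosphatase that limits Kit and Epor signals, was at -0.02. Of 5 target genes 4 were higher, with a median of 0.07: the cytokine Osm stood at 0.26, Myc at 0.13, the survival gene Bcl2l1 at 0.07 and Mcl1 at -0.05 (0.19 on another probe set). Among 3 proteases that can cut receptors from the surface, Elane stood at 0.16, Adam10 at 0.13 and Adam17 at -0.21 (0.05 on another probe set).

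**Figure D4:**
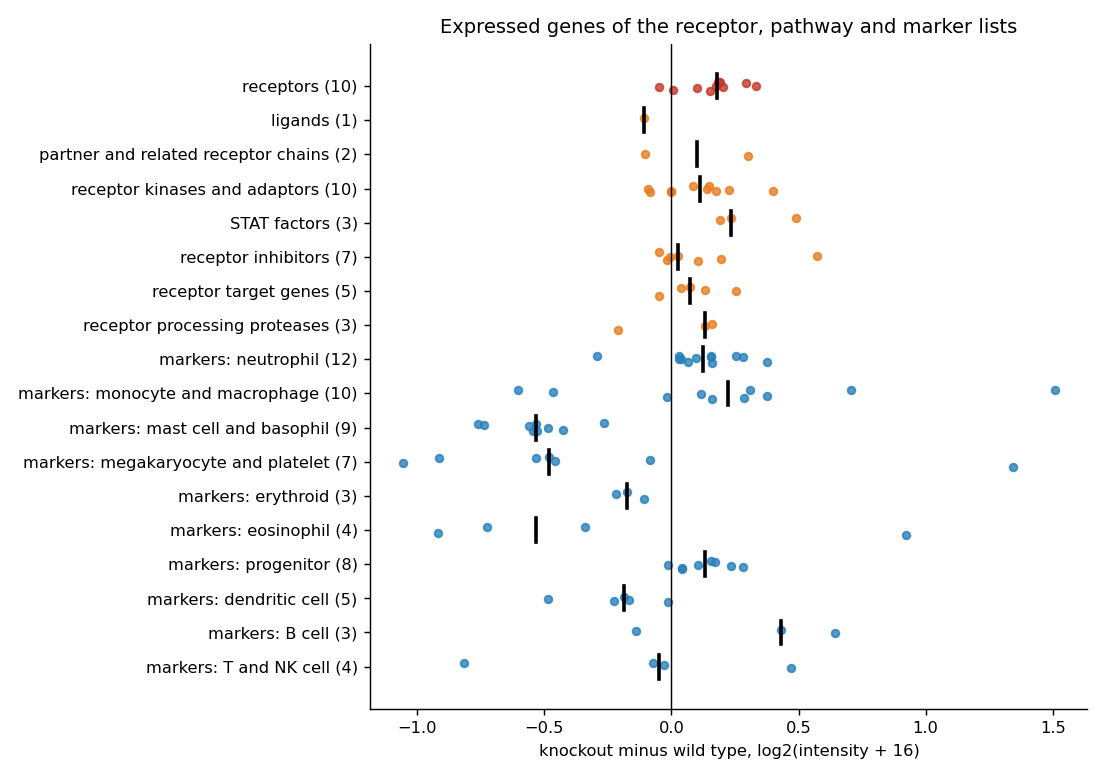
Difference between knockout and wild type on the scale log2(intensity + 16) for each expressed gene of the receptor list (red), the pathway lists (orange) and the cell type marker lists (blue), with the number of expressed genes in brackets and the list median as a black bar. The receptor median is 0.18, that of mast cell and basophil markers -0.53 and that of megakaryocyte and platelet markers -0.48.

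The size of the receptor differences depended on how the arrays were scaled. Centring on the spike-in controls moved the median of all expressed genes to 0.13 and that of the receptors to 0.31, so the distance between the medians stayed at 0.18, and all 10 receptors were then above 0, as were 82.9% of expressed genes. Over the 11 alternatives tried, the receptor median lay between 0.15 and 0.31. Csf3r ranged from 0.32 to 0.47 and Flt3 from 0.21 to 0.43. Only Csf2rb (-0.02 to 0.14) and Kit (-0.08 to 0.09) changed sign.

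**Figure D5:**
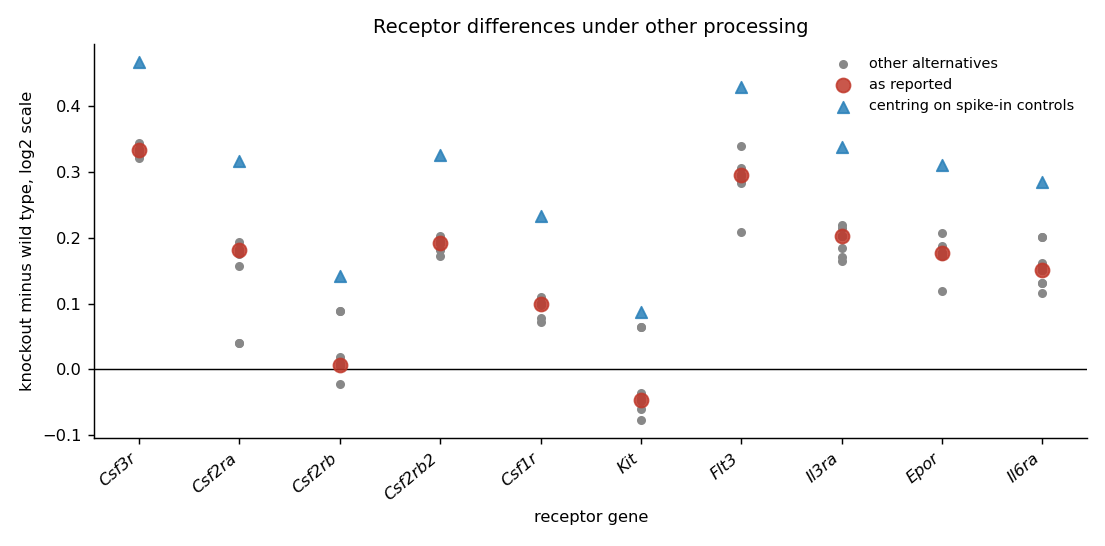
Difference between knockout and wild type on the log2 scale for each receptor gene as reported (large red circles), after centring on spike-in controls (blue triangles) and under the other alternatives (small grey circles). The triangles stand above the reported values for all 10 genes, and the points of Csf2rb and Kit lie on both sides of 0.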

How the data were processed

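The deposited file holds a linear intensity for each probe set on each array. The sources used here do not say how the authors corrected background, summarized or normalized it. Per the labels, biotinylated cRNA was made with the Affymetrix 3' IVT Express kit. Of 45101 probe sets, 64 were array controls, 34945 were named for 1 gene and 932 for several; the last were left out of gene values. Symbols were updated through Entrez identifiers with RefSeq (GRCm38.p6), which also gave the printed sequences. Samples were grouped by the genotype in the labels.

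Intensities were transformed to log2(intensity + 16) and subtracted, knockout minus wild type, with Python 3.11.15, pandas 2.3.3 and statsmodels 0.14.6. Expression, the gene's probe set and sizes of 0.25 and 1 were set as stated in the report. The members and gene lists were chosen with earlier results of these data known. Named were all receptors, up to 4 expressed genes with the largest differences per pathway list and up to 3 per marker list. Ligands were named where their receptor is in the set, and S100a9 and Elane by level. Jak2, Ptpn6, Epx, H2-Ab1 and the markers below the cut were named outside this rule, after their values were seen. The calculation was tested on simulated data. The 11 alternatives changed the pseudocount (1 or 64), the normalization (median, quantile, loess with span 0.3, spike-in controls), the probe set rule (mean, median, without shared suffix classes) and the expression filter (none, 75th percentile).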

Additional observations from a re-analysis of the deposited data

How the results depend on the processing

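The count of receptors above 0 stayed within 1.5 times of the 9 reported under each of the 11 alternatives, from 6 to 10, and the median difference stayed above 0. The count below 0, reported as 1, was 2 with quantile normalization, which added Csf2rb, and 0 with centring on spike-in controls, the mean of all probe sets, the median of expressed probe sets, and without shared suffix classes, where Kit has no probe set left among 9 genes. The count of receptors higher by 0.25 or more, reported as 2, was 7 with centring on spike-in controls and 1 with a pseudocount of 64 or the filter at the 75th percentile. At that percentile 7 receptors were still counted as expressed, with a median of 0.15, and Flt3, Il3ra and Epor were not. Of 106 single-gene values under alternatives, 106 moved by less than the SD between probe sets (0.144), and 2 genes, Csf2rb and Kit, changed sign. Many of these values could not move: the expression filters and the suffix rule left each value as it was. So did the mean and median rules for genes with 1 probe set. Spike-in centring shifted every gene alike, by the size of the controls' median difference of -0.13. Csf2ra went from 0.18 to 0.04 with the mean of all probe sets and still counted as unmoved. No paired analysis was possible because each genotype has 1 array. Signal over background limits Flt3 and Epor most, with intensities from 79.2 to 113 against an expression cut of 33.9.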

Other observations

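Lymphoid and dendritic cell genes, which share no receptor of the set as a defining marker apart from Flt3 in dendritic cells, were also followed. Of 5 expressed dendritic cell genes all 5 were lower in the knockout culture, with a median of -0.19. H2-Aa, an MHC class II chain, was lowest (-0.48), and H2-Ab1 stood at -0.01 (0.13 on another probe set). Their summed intensity over 8 measured genes was 1146 on the knockout array and 1369 on the wild-type array. Of 3 expressed B cell genes 2 were higher, with a median of 0.43, and of 4 expressed T and NK cell genes 1 was higher and 3 were lower, and the median was -0.05.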
